A study of Bos taurus with 12 samples.

Results

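The comparison described here sets the last day of a differentiation series, 9 d, against its first induced day, 3 d, in bovine intramuscular preadipocytes, the fat cell precursors that lie between muscle fibres. The study took these cells from the longissimus dorsi of newborn Qinchuan cattle and sequenced their RNA on 4 days of culture, 0 d (not yet induced), 3 d, 6 d and 9 d, calling the 3 libraries of a day biological replicates. Samples were chosen by the day in their labels: the 3 libraries of 3 d and the 3 of 9 d, 6 of the 12. By the labels all 6 came from cells that were induced at 90% confluence with 0.5 mM IBMX, 5 µg/ml insulin and dexamethasone for 48 h and kept in 5 µg/ml insulin alone afterwards, so that the 9 d cells had been without IBMX and dexamethasone for longer than the 3 d cells. The dexamethasone dose is left out because the labels and the study's methods give different ones, and those methods state insulin as a molar dose. Time in culture and time since the cocktail cannot be told apart in this design. The genes compared were the 15402 of 33714 entries of the expression table whose mean over the 12 libraries was at least 0.1 FPKM, that is fragments scaled to transcript length and library size.

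In a standard induction of fat cells, IBMX blocks many phosphodiesterases and so keeps cyclic AMP high, dexamethasone activates the glucocorticoid receptor, and insulin drives glucose uptake and lipid synthesis. These signals act through early factors such as CEBPB, CEBPD and KLF proteins on PPARG and CEBPA, which switch on genes of lipid storage, while precursor traits such as a fibrillar matrix, actin stress fibres and cell division recede. Intramuscular fat is the marbling of beef, and its precursors share their tissue with muscle fibres, fibroblasts and vessels.

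The label of the samples, intramuscular adipocytes, was checked against 8 adipocyte markers. All 8 were tested, and 2 were called higher at 9 d and 3 lower, with a median log2 fold change of -0.62. With log2(FPKM + 1), and with a mean of at least 1 FPKM, 1 was higher and 1 lower. ADIPOQ, the adipocyte hormone adiponectin, stood at 0.40, 0.86 and 0.91 FPKM at 3 d and 0.80, 0.82 and 0.19 at 9 d, and CIDEC, which joins lipid droplets, at 0.070, 0.11 and 0.21 and 0.57, 0.26 and 0.39. Its 9 d libraries lay above those of 3 d, all under 1 FPKM, while those of ADIPOQ overlapped. PCK1, an early enzyme on a route to glycerol phosphate, had 0.20, 0.22 and 0.27 FPKM at 3 d and 0, 0.030 and 0 at 9 d. Its fall was called with log2(FPKM + 0.1) but not with log2(FPKM + 1) (log2 -0.28). The most abundant of the 8, FABP4, a fatty acid carrier of adipocytes, had 94.7, 86.2 and 92.3 FPKM at 3 d and 7.59, 8.84 and 10.8 at 9 d. Over the 8 genes FPKM summed to 151, 149 and 155 at 3 d and 75.6, 59.9 and 76.8 at 9 d, the part of PLIN1 being held by an entry shared with PEX11A. At 9 d ADIPOQ, CIDEC, PCK1 and LIPE thus lay under 1 FPKM in every library, while FABP4, LEP, LPL and the entry of PLIN1 were present in each, LEP being the member that rose most. Of 9 markers of preadipocytes and fibroblasts, 8 were tested, and VIM was the most abundant, while DLK1 was listed at 0, 0 and 0 FPKM at 3 d and 0, 0.12 and 0.11 at 9 d. Lipid itself was measured in the paper, with the fat stain Oil Red O and a triglyceride assay, and is reported to have risen gradually during differentiation. Falls in the RNA of fat cell markers or lipid genes are thus not falls in measured lipid. How RNA and lipid relate in these cultures was not tested. The samples are called by their day below.

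Between 3 d and 9 d, 3157 genes were called, 20.5% of those tested: 1574 were higher at 9 d (10.2%) and 1583 were lower (10.3%). To be called, a gene had to differ by more than 1 on the log2(FPKM + 0.1) scale, in either direction, at an adjusted p (Benjamini-Hochberg) under 0.05 from limma fitted to all 12 libraries. Rises reached further than falls: 207 genes rose and 106 fell by more than 3 on the log2 scale, and 34 rose and 8 fell by more than 5. For 59.6% of tested genes, and for 3108 of those called, every 9 d library lay on the same side of every 3 d library. Over all tested genes the median of the log2 fold changes was -0.13, against which the medians of gene lists are read. Median ratio scaling moved it by 0.12, to -0.01, which turned the median of fatty acid synthesis genes from -0.13 to 0.00 and took the calls of MYOD1, COL4A1, TOP2A and GSN. With that scaling 1823 genes were called higher and 1253 lower. With log2(FPKM + 1) the calls dropped to 1013 higher and 850 lower. Fold changes on the log2(FPKM + 0.1) scale are understated for genes with low FPKM, and where a day holds libraries at 0 no ratio of FPKM is given. FPKM hold no read counts, the depth of each library was not analysed here, and the sum of FPKM was 1.22e+06 to 1.27e+06 in the 3 d libraries and 1.33e+06 to 1.37e+06 at 9 d. The p-values measure only the spread between these libraries, and the labels do not give the number of animals behind them. In RNA from whole cultures, fewer cells of a type and less RNA per cell cannot be told apart.

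**Figure D1:**
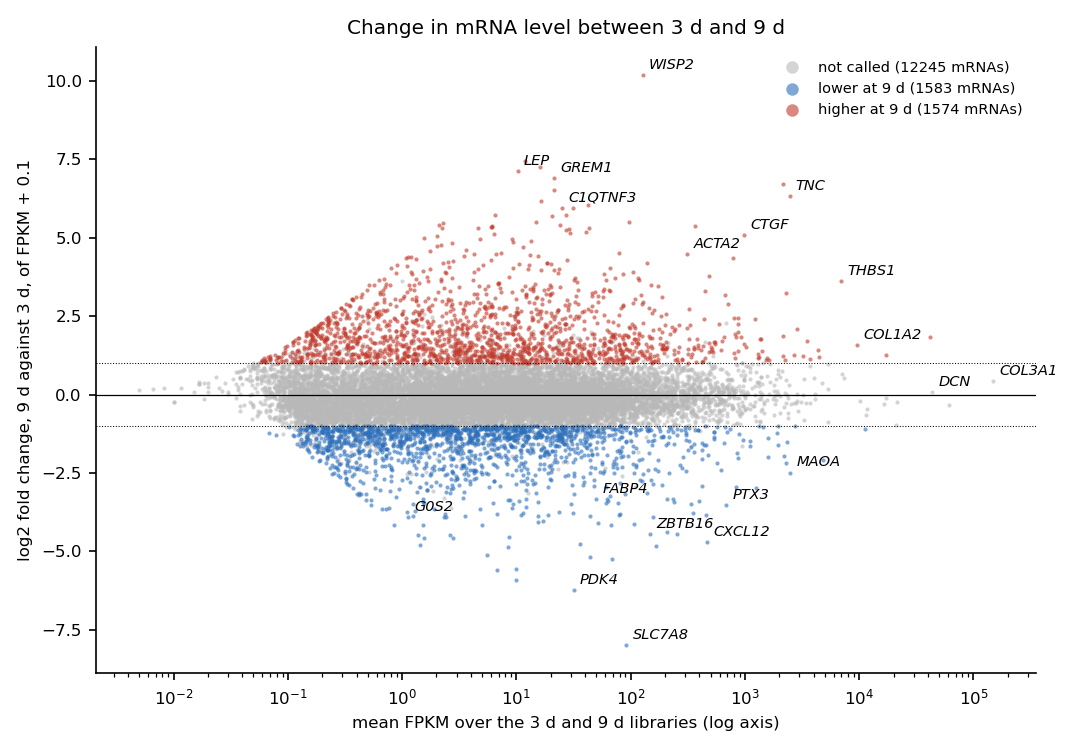
Each point is 1 of 15402 tested genes, with its mean FPKM over the 6 libraries of 3 d and 9 d on a log axis and its limma log2 fold change of FPKM + 0.1, 9 d against 3 d. Red points are the 1574 genes called higher at 9 d, blue points the 1583 called lower, and dotted lines mark the threshold of 1 in both directions.

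The largest rise was that of WISP2 (CCN5), a secreted matricellular protein of the CCN family. It had 0.97, 0 and 0 FPKM at 3 d and 247, 262 and 254 at 9 d, a log2 fold change of 10.17 (SE 0.73, adjusted p = 1.58e-06). The gene went from near absence in every 3 d library to a high level in every 9 d library, and its 0 d mean of 335 FPKM lay on the high side too. LEP, which encodes leptin, the hormone by which fat reports its stores, had 0, 0.21 and 0 FPKM at 3 d and 25.3, 16.6 and 19.6 at 9 d, a log2 fold change of 7.12 (adjusted p = 2.87e-07). Its means at 0 d and 6 d were 2.34 and 8.02 FPKM, and the 9 d libraries held the highest values. GREM1, a secreted antagonist of bone morphogenetic proteins (BMPs), had 0.25, 0.27 and 0.25 FPKM at 3 d and 36.8, 44.5 and 47 at 9 d (log2 6.90, adjusted p = 1.47e-08), and FST, which binds activins, had 0.35, 0.30 and 0.40 and 32.1, 35 and 30 (log2 6.18, adjusted p = 7.68e-11). For both secreted inhibitors the 3 d libraries all lay under 1 FPKM and all 9 d libraries over 30.

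TNC, tenascin C, a matrix protein of remodelling tissue, held both a large fold and a large amount of RNA: 54.1, 62.3 and 64 FPKM at 3 d against 5088, 4510 and 4969 at 9 d, 80.8 times as much (log2 6.34, SE 0.07, adjusted p = 1.72e-11). The cadherin CDH26 rose from 0.123 ± 0.0764 FPKM (SD, n = 3) to 32.3 ± 2.28, and its 0 d and 6 d means were 0.84 and 1.06, so that its high level was seen on the last day alone among the 4. The connexin GJA5 (log2 7.45, SE 1.35), the TNF ligand TNFSF18 (log2 6.70), KIAA0040 (log2 6.54) and CYP3A4, a cytochrome P450 that oxidises steroids and drugs (log2 6.04), made up the rest of the 10 largest rises. Of these, TNFSF18 was the most abundant, with 41.2 FPKM at 3 d and 4226 at 9 d, and whether reads of overlapping or similar loci add to this high level was not tested.

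The largest fall was that of SLC7A8, a transporter of neutral amino acids, with 171, 192 and 186 FPKM at 3 d and 0.74, 0.55 and 0.59 at 9 d, 292 times less (log2 -7.99, SE 0.38, adjusted p = 7.39e-08). PDK4, a kinase that shuts pyruvate out of the mitochondrial citrate cycle and so favours fatty acid use, had 63.9, 61 and 63.8 FPKM at 3 d and 0.66, 0.69 and 0.85 at 9 d, 85.8 times less (log2 -6.25, adjusted p = 1.24e-09). Both genes were also low at 0 d, at 0.36 and 0.94 FPKM. CD163, a scavenger receptor for haemoglobin best known from macrophages, had 204, 114 and 85.2 FPKM at 3 d and 3.97, 2.72 and 2.98 at 9 d (log2 -5.26, adjusted p = 1.06e-06), while PTPRC, carried by all white blood cells, was listed at 0 in all 6 libraries. The chemokine CXCL12, which guides blood cell precursors, had 882, 923 and 898 FPKM at 3 d and 34.9, 34.7 and 33.2 at 9 d, 26.3 times less (adjusted p = 2.03e-11). The libraries of the 2 days lay far apart for each of these 4 genes.

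Secreted inhibitors of signalling were also among the 10 largest falls. DKK1, an inhibitor of Wnt receptors, fell from 10.9 ± 0.816 FPKM (SD, n = 3) to 0.22 ± 0.070 (log2 -5.12) and was listed at 0 in every 0 d library, and BMPER, which binds BMPs, fell from 16.3 ± 0.615 to 0.47 ± 0.0458 (log2 -4.85). PDE7B, a phosphodiesterase of cyclic AMP, had 342, 309 and 323 FPKM at 3 d and 9.95, 12.7 and 11.5 at 9 d (log2 -4.83). MAOB, a monoamine oxidase, had 2.98, 3.05 and 2.64 FPKM at 3 d and 0, 0 and 0.020 at 9 d, and FAM110C fell from a mean of 70.3 FPKM to 2.50. TAGLN3, a relative of the calponins, is the uncertain member of the 10: it had 73.1, 91.2 and 77 FPKM at 3 d but 0.38, 0.90 and 22.6 at 9 d (log2 -5.18, SE 1.69, adjusted p = 0.0267). Its call was lost when any of the 3 d libraries, 9 d replicate 1 or 9 d replicate 2 was left out, with log2 fold changes from -5.24 to -4.07.

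**Figure D2:**
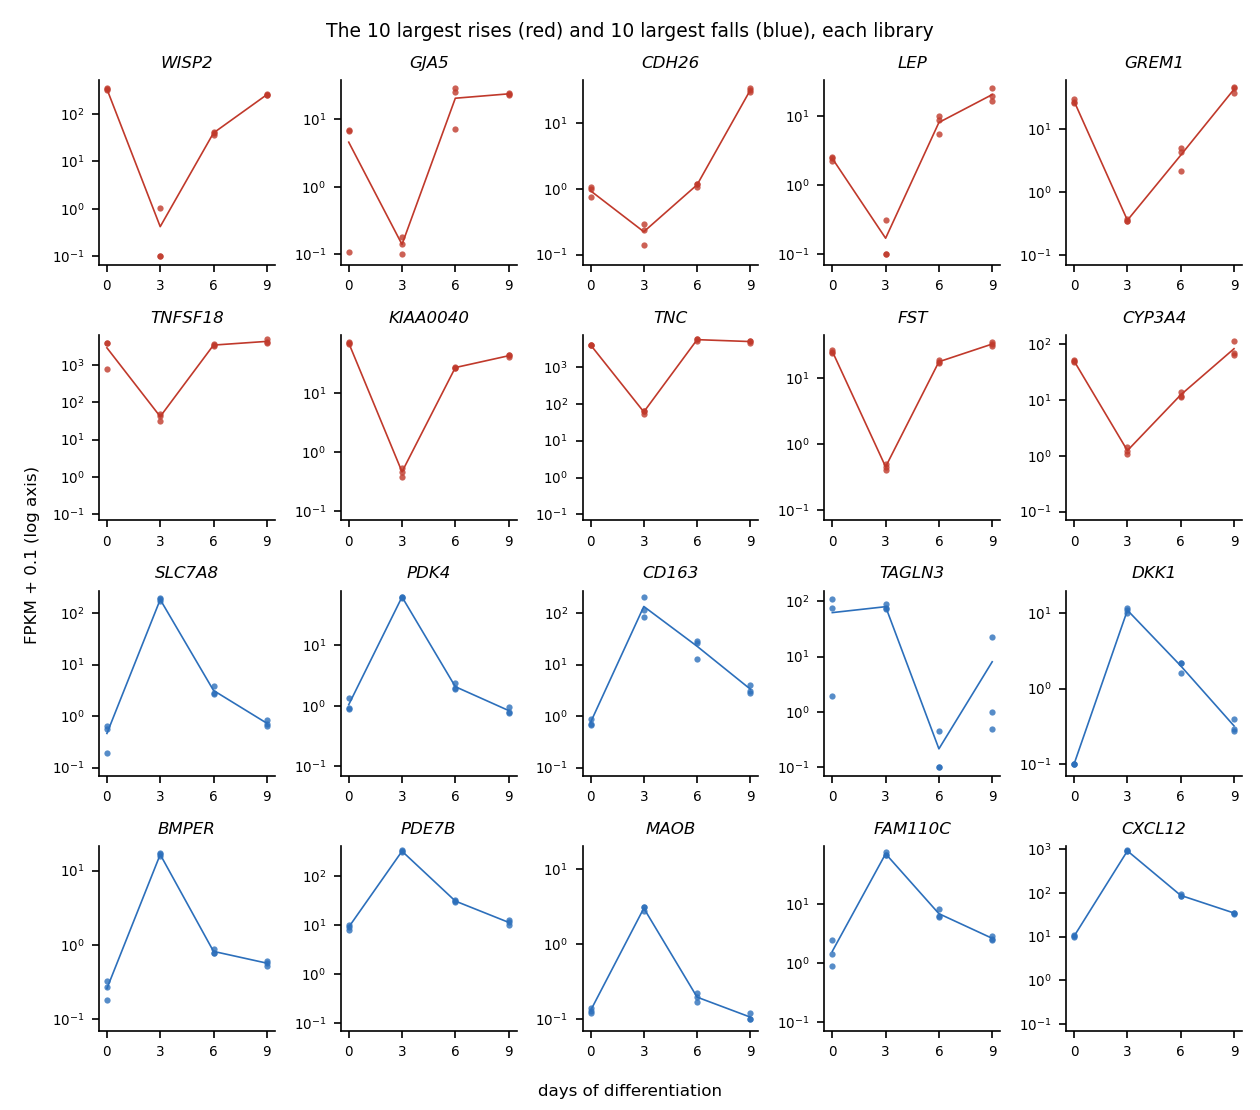
FPKM + 0.1 on a log axis against the day of differentiation for the 10 genes with the largest rises (red) and the 10 with the largest falls (blue) between 3 d and 9 d, where points are the 3 libraries of each day and lines join the day means. The 3 d libraries of WISP2 reach at most 0.97 FPKM and those of 9 d at least 247, while SLC7A8 goes from at least 171 FPKM at 3 d to at most 0.74 at 9 d.

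Changes were also read as amounts of RNA. Of the called genes, the 5 with the largest gains in mean FPKM were the entry shared by ACTG1, a cytoplasmic actin, and MIR3533 (18399.6 to 65473 FPKM), VIM, the intermediate filament of mesenchymal cells (10019.6 to 24199.6), THBS1, COL1A2 and TNC. Losses among called genes were largest for GSN, gelsolin, which severs actin filaments (15428 to 7203 FPKM), and for NUDT4, MAOA, NID2 and the entry of SCP2, a sterol carrier, shared with LOC100297152. The fall of GSN, -1.10 on the log2 scale, lost its call with median ratio scaling (log2 -0.97). The most abundant gene of all 6 libraries was COL3A1, the fibrillar collagen III, which held 9.99% to 10.4% of the summed FPKM of a 3 d library and 12.3% to 12.8% of a 9 d library. COL3A1 had 123034, 126884 and 129901 FPKM at 3 d and 173652, 163376 and 175454 at 9 d, without overlap, and its log2 difference of 0.43 (adjusted p = 1.41e-05) was under the threshold for a call, though its gain in FPKM was second to that of ACTG1. DCN, a proteoglycan that coats collagen fibrils, was close to level, with 42430.4 and 44464 FPKM (log2 0.07, adjusted p = 0.219). Among the 10 most abundant entries, ACTG1 and VIM were called, both higher at 9 d. LRP1, EEF1A1, ENO1, RMRP, GAPDH and RPLP0 were not called, with log2 differences from -0.97 (ENO1) to -0.12 (RMRP), and ENO1 would pass the threshold without 3 d replicate 1 (log2 -1.01). LRP1 (67866 to 53530.4 FPKM) and ENO1 (27706 to 14174) lost more FPKM than GSN without being called, and whether reads of overlapping or similar loci add to the high level of LRP1 was not tested.

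Functions were read from 44 gene lists, each described by how many tested members were called in each direction and by its median log2 fold change. The list of glucocorticoid-induced genes had the most calls toward lower levels, and that of matricellular proteins the most toward higher levels. Subunits of the respiratory chain and of the cytosolic ribosome, the largest lists, had few calls. Several lists share members, such as KLF15 and PDK4, and some members share an entry with a neighbouring gene, in which case the value cannot be assigned to 1 gene.

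**Figure D3:**
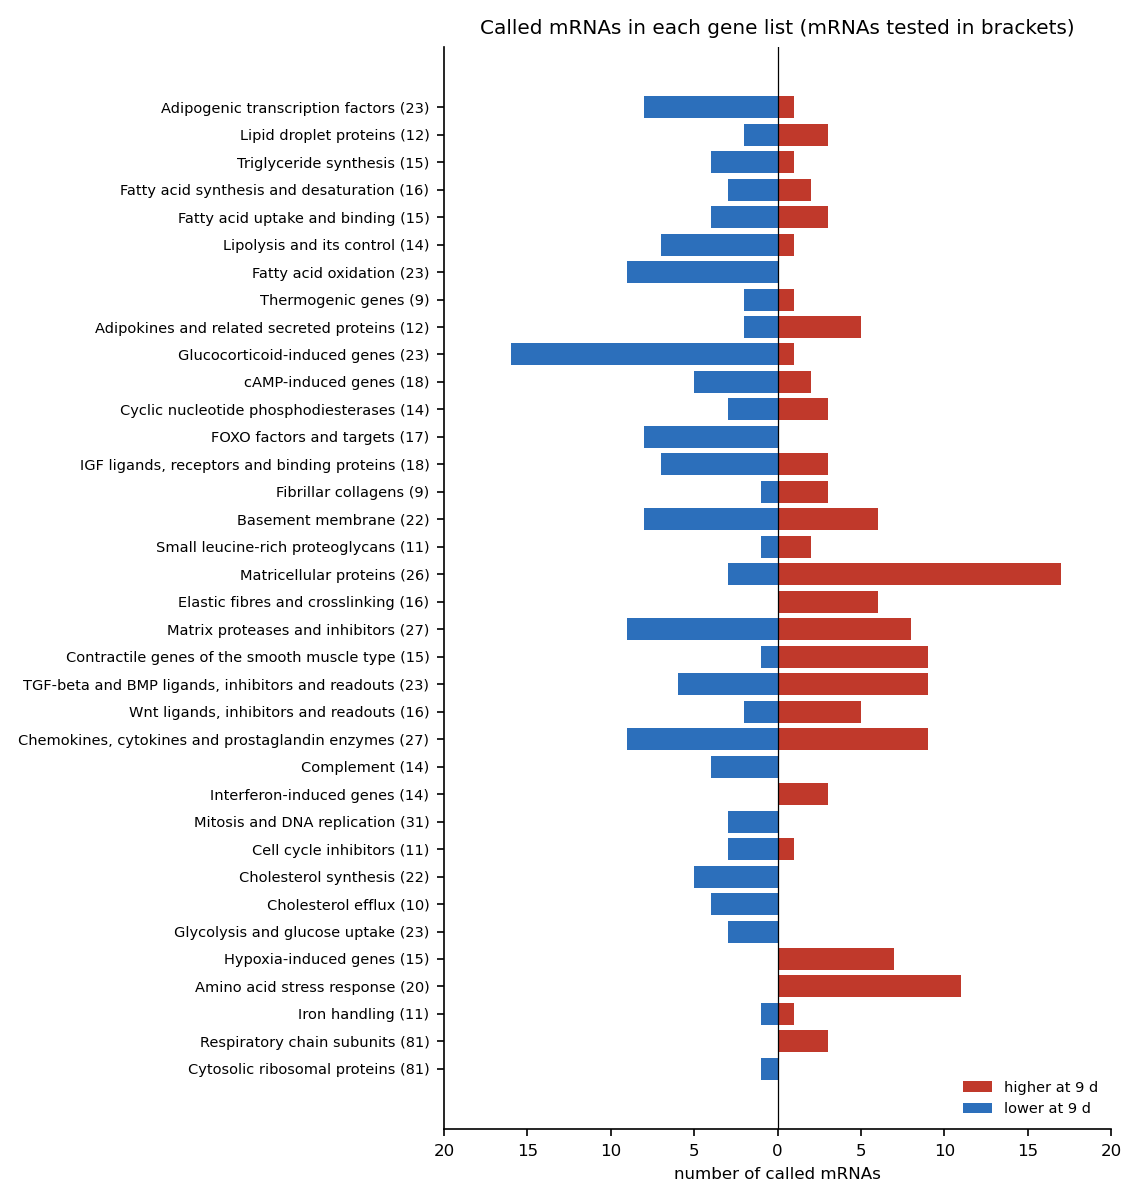
Bars give the number of called members of each functional gene list, higher at 9 d to the right (red) and lower to the left (blue), with the number of members tested in brackets. Glucocorticoid-induced genes have 16 members lower and 1 higher, and matricellular proteins 17 higher and 3 lower.

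**Figure D4:**
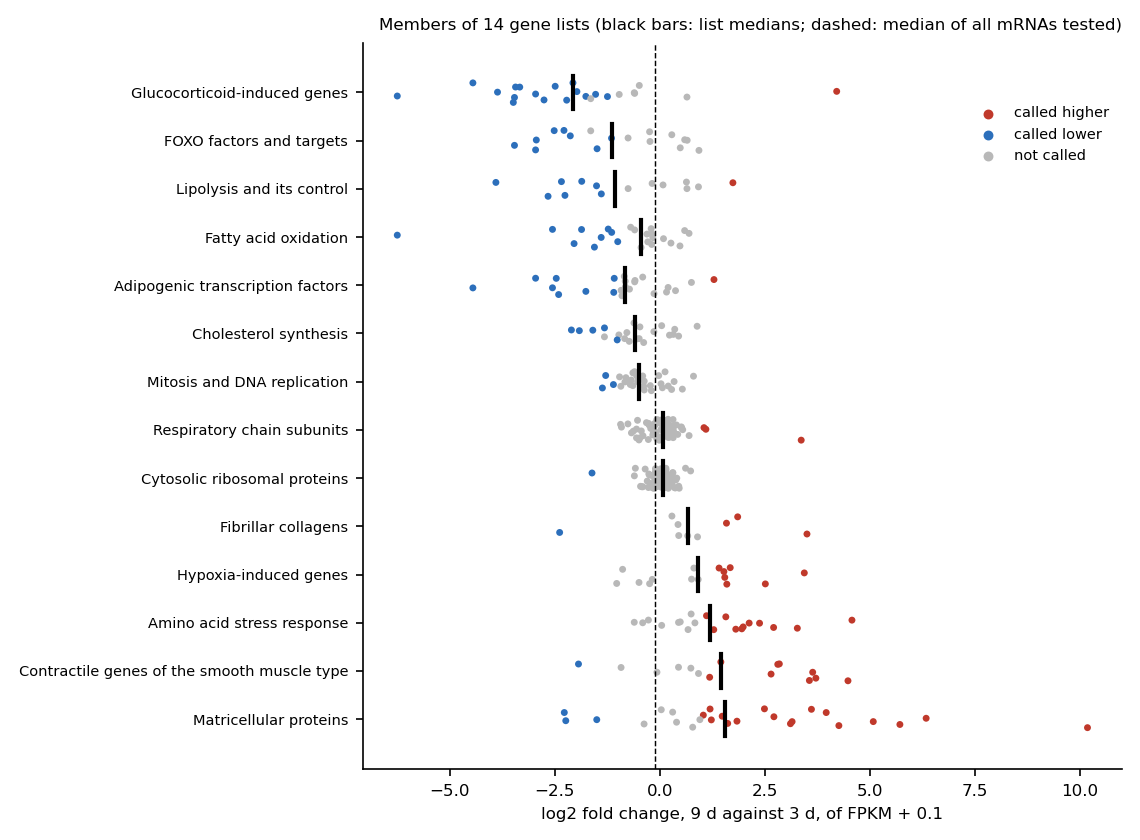
Each point is the log2 fold change of FPKM + 0.1, 9 d against 3 d, of a tested member of 1 of 14 lists, coloured by its call, with a black bar at the list's median and a dashed line at the median of all tested genes (-0.13). Medians run from -2.07 for glucocorticoid-induced genes to 1.55 for matricellular proteins.

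Genes that glucocorticoids are known to induce were lower at 9 d almost throughout. Of 23 tested members 16 fell and 1 rose, with a median log2 fold change of -2.07 beside -0.13 for all genes tested. FKBP5, a chaperone of the glucocorticoid receptor and a standard readout of its activity, had 114, 22.7 and 113 FPKM at 3 d and 4.65, 8.5 and 2.24 at 9 d, with a log2 fold change of -3.86 (SE 0.76, adjusted p = 0.00181). The 3 d replicate 2 was far lower than the other 2, yet above every 9 d library, and the 0 d mean was 0.423 FPKM. TSC22D3 (GILZ), an anti-inflammatory mediator of these hormones, had 34.4, 36.8 and 33.6 FPKM at 3 d and 8.07, 8.15 and 8.53 at 9 d (log2 -2.07, adjusted p = 5.56e-09), and its 0 d mean of 8.13 FPKM lay close to that of 9 d. ZBTB16, a zinc finger factor, had 355, 330 and 162 FPKM at 3 d and 15.6, 9.89 and 11.5 at 9 d (log2 -4.45, adjusted p = 2.36e-06). Here too the days did not overlap, although 3 d replicate 3 held less than the others.

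Of the more abundant members of the same list, CEBPD and FOXO3, given below, were not called. MAOA, a monoamine oxidase and the most abundant of the list, went from 4216 ± 129 FPKM (SD, n = 3) to 750.1 ± 14.5, 5.62 times less. CRISPLD2, a secreted protein, fell from a mean of 621 FPKM to 55.3, GLUL, which makes glutamine, from 440.4 to 40.7, and the metallothionein MT2A from 114 to 11.2. PER1 of the circadian clock, NFKBIA, an inhibitor of NF-kappa B, and the kinase SGK1 fell by 2.76, 2.22 and 1.53 on the log2 scale. HSD11B1, which regenerates active glucocorticoid inside cells, had 4.39, 2.89 and 2.59 FPKM at 3 d and 1.31, 1.32 and 1.25 at 9 d and fell by 1.25, a call that log2(FPKM + 1) did not keep (log2 -0.88). ERRFI1, a feedback inhibitor of the EGF receptor, moved the other way, with 13.6, 13.5 and 15.2 FPKM at 3 d and 278, 256 and 252 at 9 d (log2 4.21, adjusted p = 2.71e-10). The gene of the receptor itself, NR3C1, was not called, with means of 106 and 178 FPKM.

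Genes that respond to cyclic AMP were split. Of 18 tested, 2 rose and 5 fell, with a median of -0.38. STC1, a secreted glycoprotein hormone, had 387, 345 and 398 FPKM at 3 d and 37.9, 40.4 and 34.3 at 9 d, 10 times less (adjusted p = 3.73e-05), and CITED2, a transcriptional coregulator, fell from 127 to 25.1 FPKM. The immediate-early factors JUNB and NR4A1 rose: JUNB had 15.6, 18 and 16.9 FPKM at 3 d and 50, 49.2 and 52.8 at 9 d (log2 1.59), and NR4A1 45.1, 59.4 and 45 and 133, 141 and 128 (log2 1.44). CREM, an inducible repressor of the cyclic AMP response, overlapped between days at 0.95, 2.22 and 0.73 and 1.22, 0.69 and 1.06 FPKM. With log2(FPKM + 1), and with a mean of at least 1 FPKM, the falling members numbered 3. Of 14 phosphodiesterases tested, a family of enzymes many of which IBMX inhibits, 3 rose and 3 fell, with a median of -0.24, and 1 rose with log2(FPKM + 1). The fall of PDE7B was joined by those of PDE3B, which lowers cyclic AMP downstream of insulin (8.15, 7.77 and 7.46 FPKM at 3 d and 1.22, 1.17 and 1.06 at 9 d, log2 -2.66), and of PDE1A (log2 -1.36). PDE3A rose from 3.63, 3.7 and 4.12 to 36, 32.8 and 37.1 FPKM (log2 3.18, adjusted p = 1.55e-09), with PDE1B (log2 2.02) and PDE4A (log2 1.04).

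FOXO factors, which insulin keeps out of the nucleus, and their known targets numbered 17 tested genes. Of these 8 fell and 0 rose in limma, with a median of -1.15, while 4 members were higher and 9 lower at an unadjusted p under 0.05. With median ratio scaling, with log2(FPKM + 0.01) and without 9 d replicate 2, 1 member was called higher. FOXO1 had 17.4, 17 and 17.8 FPKM at 3 d and 3.7, 3.51 and 3.3 at 9 d (log2 -2.28, SE 0.07, adjusted p = 2.46e-09). The sestrins SESN1 and SESN3, which restrain the growth kinase mTORC1, had 152, 139 and 133 and 391, 359 and 352 FPKM at 3 d against 9.87, 14.7 and 14.2 and 63, 64.3 and 65.3 at 9 d. Both fell, by 3.46 and 2.51 on the log2 scale. BCL6, a transcriptional repressor, fell from 1469.6 ± 76 FPKM (SD, n = 3) to 203 ± 75.9, and IRS2, which couples the insulin receptor to its signals, from 28.9 to 10.2. FOXO3, the most abundant of the list, had 469, 1893 and 1783 FPKM at 3 d and 734, 105 and 669.8 at 9 d and was not called (log2 -1.65, adjusted p = 0.227).

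Of 18 genes for insulin-like growth factors, their receptors and binding proteins, 7 fell and 3 rose, with a median of -0.78. IGF1, a growth factor that acts on fat cell precursors, had 106, 111 and 117 FPKM at 3 d and 11.2, 9.72 and 9.38 at 9 d, 11 times less (log2 -3.45, adjusted p = 3.31e-04). IGF2 had 379, 879 and 818 FPKM at 3 d and 287, 165 and 199.6 at 9 d (log2 -1.62, adjusted p = 0.00183), and its days came closest between 3 d replicate 1 and 9 d replicate 1. Both ligands thus fell, as did the protease PAPPA that frees IGFs from their binding proteins (127 to 36.7 FPKM). The binding proteins moved apart: IGFBP3 fell from 447 to 93.4 FPKM, whereas IGFBP6 rose from 4.62 to 59 and IGFBP7 from 3.38 to 17.3. STC2, an inhibitor of PAPPA, rose by 4.57 on the log2 scale but stayed low, with 0.050, 0.080 and 0.020 FPKM at 3 d and 3.02, 2.92 and 4.51 at 9 d. The receptor genes INSR and IGF1R were not called, at log2 -0.76 and 0.71, nor was IGFBP5, the most abundant of the list, whose 9 d libraries scattered (1089, 2526 and 451 FPKM, beside 499, 539 and 572 at 3 d).

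Of 23 tested transcription factors of adipogenesis 8 fell and 1 rose, with a median of -0.82, and 14 were not called. KLF15, which cooperates with the glucocorticoid receptor, had 29.4, 36.1 and 34.8 FPKM at 3 d and 3.41, 4.53 and 4.79 at 9 d (log2 -2.96, adjusted p = 6.51e-08). The early B cell factors EBF1 and EBF2, which mark and drive the fat lineage, fell from means of 239 and 6.26 FPKM to 45 and 1.05. KLF9, in an entry shared with LOC104969351, fell from 648 ± 11.1 FPKM (SD, n = 3) to 191 ± 11.7, and ZNF423, a factor of preadipocyte commitment, from 33.9 to 16.1. GATA2, which holds precursors back from differentiation, fell too, from 6.51 to 1.04 FPKM. CEBPA, which sustains the fat cell program, was near 0 on both days, at 0.18, 0.22 and 0.26 and 0.050, 0.050 and 0.050 FPKM. Its fall of -1.09 on the log2 scale lost the call with log2(FPKM + 1) (log2 -0.22) and without 3 d replicate 3 (log2 -0.997). The early factors CEBPB and CEBPD were abundant on both days and not called, CEBPD with 2440.2 and 1616 FPKM. KLF5 rose from 43.2, 49 and 52.2 to 115, 119.5 and 118 FPKM (log2 1.29).

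Genes of lipid storage moved in both directions. Of 12 tested lipid droplet proteins 3 rose and 2 fell, with a median of 0.50, and 1 rose with log2(FPKM + 1) or with a mean of at least 1 FPKM, where 1 fell. The list's FPKM, mostly that of PLIN2, summed to 769, 818 and 814 at 3 d and 394, 378 and 420 at 9 d. The sum was thus lower at 9 d although the median was positive. PLIN2, the coat of droplets in cells of many kinds and the most abundant of the list, had 648, 680 and 676 FPKM at 3 d and 216, 206 and 232 at 9 d, 3.06 times less (log2 -1.62, adjusted p = 1.35e-08). The entry of PLIN1, the coat of mature adipocytes, and PEX11A had 41.1, 50 and 50 and 34.9, 27.9 and 37.4 FPKM and was not called (log2 -0.50, adjusted p = 0.0398). G0S2, which inhibits the lipase PNPLA2, went from 1.86, 2.39 and 2.31 FPKM to 0.080, 0.040 and 0.040. HILPDA, another inhibitor of that lipase, in an entry shared with FAM71F2, rose from 8.02, 8.98 and 9.44 to 24.4, 21.2 and 25.1 FPKM (log2 1.41). The other members called higher, CIDEB and CIDEC, stayed under 1 FPKM, and CIDEC lost its call with log2(FPKM + 1) (log2 0.31), without 3 d replicate 1 (log2 0.94) and without 9 d replicate 1 (log2 0.91).

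Of 15 tested genes of triglyceride synthesis 4 fell (LPIN1, GPAM, LPIN2 and DGAT2) and 1 rose, with a median of -0.19. With median ratio scaling 2 rose and 3 fell. The falls also numbered 3 with log2(FPKM + 0.01), with no filter on low values and with the replicate block. The same count came without any of the 3 d libraries and without 9 d replicate 1 or 2. LPIN1, which makes diacylglycerol, had 416, 437 and 418 FPKM at 3 d and 36.4, 48.4 and 41.4 at 9 d, 10.1 times less (log2 -3.34, adjusted p = 3.57e-09). GPAM, which attaches the first fatty acid to glycerol phosphate, had 12.8, 14.2 and 13 and 2.98, 2.85 and 2.96 FPKM (log2 -2.15), and DGAT2, which attaches the last, 20.3, 22.1 and 23.1 and 8.72, 7.51 and 11.5 (log2 -1.25, with no call but a similar fold of -1.26 with log2(FPKM + 0.01)). Each of the 3 enzymes was lower in all 9 d libraries than in any 3 d library, while DGAT1, the most abundant of the list, was not called, at 452 and 469.7 FPKM. The call of AGPAT2 (1.89 to 3.99 FPKM, log2 1.03) was lost without 3 d replicate 1 (log2 0.97), without 9 d replicate 1 (log2 0.95) and with log2(FPKM + 1) (log2 0.78). For fatty acid synthesis and desaturation, 2 of 16 rose and 3 fell, and the median of -0.13 was close to that of all genes. SCD, which desaturates stearic acid, had 279.8, 246 and 299 FPKM at 3 d and 92.7, 119 and 116 at 9 d (log2 -1.33, adjusted p = 1.64e-05), and ACACB, an acetyl-CoA carboxylase that restrains fatty acid oxidation, fell from 20.3 to 2.92. FASN, fatty acid synthase, had 2672, 3219 and 3020 and 1881, 1828 and 1588 FPKM without overlap and was not called (log2 -0.75). FADS3 and ME1, the latter a source of NADPH, rose by 2.59 and 1.07 on the log2 scale.

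Genes of fatty acid uptake moved in both directions. Of 15 tested, 3 rose and 4 fell, with a median of -0.24. FABP4 was lower in every 9 d library than in any 3 d library, 10 times in the mean (log2 -3.33, SE 0.12, adjusted p = 1.16e-08), and its 0 d and 6 d means were 3.3 and 26.4 FPKM. VLDLR, a receptor for triglyceride-rich lipoproteins, had 29.3, 27.7 and 28.2 FPKM at 3 d and 312, 309 and 328 at 9 d, 11.1 times more (log2 3.47, adjusted p = 2.26e-11). The libraries of both genes were tightly grouped within each day. The fatty acid transporter CD36 rose from 3.41 to 8.07 FPKM and ACSL5, which activates fatty acids, from 25.9 to 103. ANGPTL4, a secreted inhibitor of lipoprotein lipase, fell from 11.1 to 2.76, and the lipase gene LPL itself had 12.5, 9.74 and 9.55 and 5.96, 5.07 and 7.98 FPKM and was not called (log2 -0.75, adjusted p = 0.00293).

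Of 14 tested genes of lipolysis and its control 7 fell and 1 rose, with a median of -1.07, though 4 fell and 0 rose with log2(FPKM + 1), and the same with a mean of at least 1 FPKM. With median ratio scaling, and without 9 d replicate 1, 2 rose. Those that fell include restraints on lipolysis, G0S2, PDE3B and the adenosine receptor ADORA1, and the list's FPKM summed to 64.8, 70.8 and 76.7 at 3 d and 60, 98.8 and 132 at 9 d, with MGLL, the most abundant, not called (log2 0.92). LIPE, hormone-sensitive lipase, had 1.69, 2.02 and 2.06 FPKM at 3 d and 0.51, 0.34 and 0.54 at 9 d (log2 -1.86, and -0.999 with log2(FPKM + 1), where the call was lost). PNPLA2, the lipase of the first step, fell from 3.69 to 1.22 FPKM and its activator ABHD5 from 2.20 to 0.79. The natriuretic peptide receptor NPR1 rose within very low levels, 0.0433 to 0.38 FPKM, and lost its call with log2(FPKM + 1) (log2 0.40). Of 23 genes of fatty acid oxidation 9 fell and 0 rose in limma, with a median of -0.45, and at an unadjusted p under 0.05 they were 15 lower and 3 higher. CPT1A, the gate for fatty acids into mitochondria, had 1331, 1409.5 and 1413 FPKM at 3 d and 374, 234 and 434 at 9 d, 3.99 times less (log2 -2.04, adjusted p = 1.03e-05). CPT2, the next enzyme, fell from 229 to 62.9 FPKM, HADHB from 154 to 69.5, and the carrier SLC25A20, in an entry shared with LOC112443526, from 25 to 4.22.

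UCP1, the uncoupling protein of brown fat, had 0, 0.050 and 0 FPKM at 3 d and 0, 0.050 and 0 at 9 d and was under the filter. Of 9 tested thermogenic genes, with a median of -0.60, CIDEA, the most abundant, was not called (6.23, 4.9 and 6.31 FPKM at 3 d and 5.65, 6.31 and 6.36 at 9 d), TMEM26 rose (0.75 to 3.31 FPKM), EBF2 fell as given above, and ELOVL3, which lengthens fatty acids, fell from 0.61, 0.38 and 0.99 FPKM to a level listed at 0 in all 9 d libraries, a call lost with log2(FPKM + 1) (log2 -0.71). With median ratio scaling, with log2(FPKM + 0.01) and without 3 d replicate 2, 2 members rose. Among 12 tested adipokines and related secreted proteins 5 rose and 2 fell, with a median of -0.25. Beside LEP, C1QTNF3, a relative of adiponectin, had 0.54, 0.79 and 0.80 FPKM at 3 d and 47.2, 51.1 and 51.1 at 9 d, 70.2 times more (log2 5.96, adjusted p = 2.71e-10). APLN, the peptide hormone apelin, had 63, 52.8 and 59.7 FPKM at 3 d and 277, 337 and 442 at 9 d (log2 2.56, adjusted p = 2.40e-05). The 9 d libraries of both lay above all those of 3 d, while SFRP5, an inhibitor of Wnt signals, fell from 4.81 to 0.467 FPKM. RARRES2, chemerin, and the entry of C1QTNF5 and MFRP rose within low levels, to 1.17 and 3.48 FPKM, and with log2(FPKM + 1) the rising members numbered 3.

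**Figure D5:**
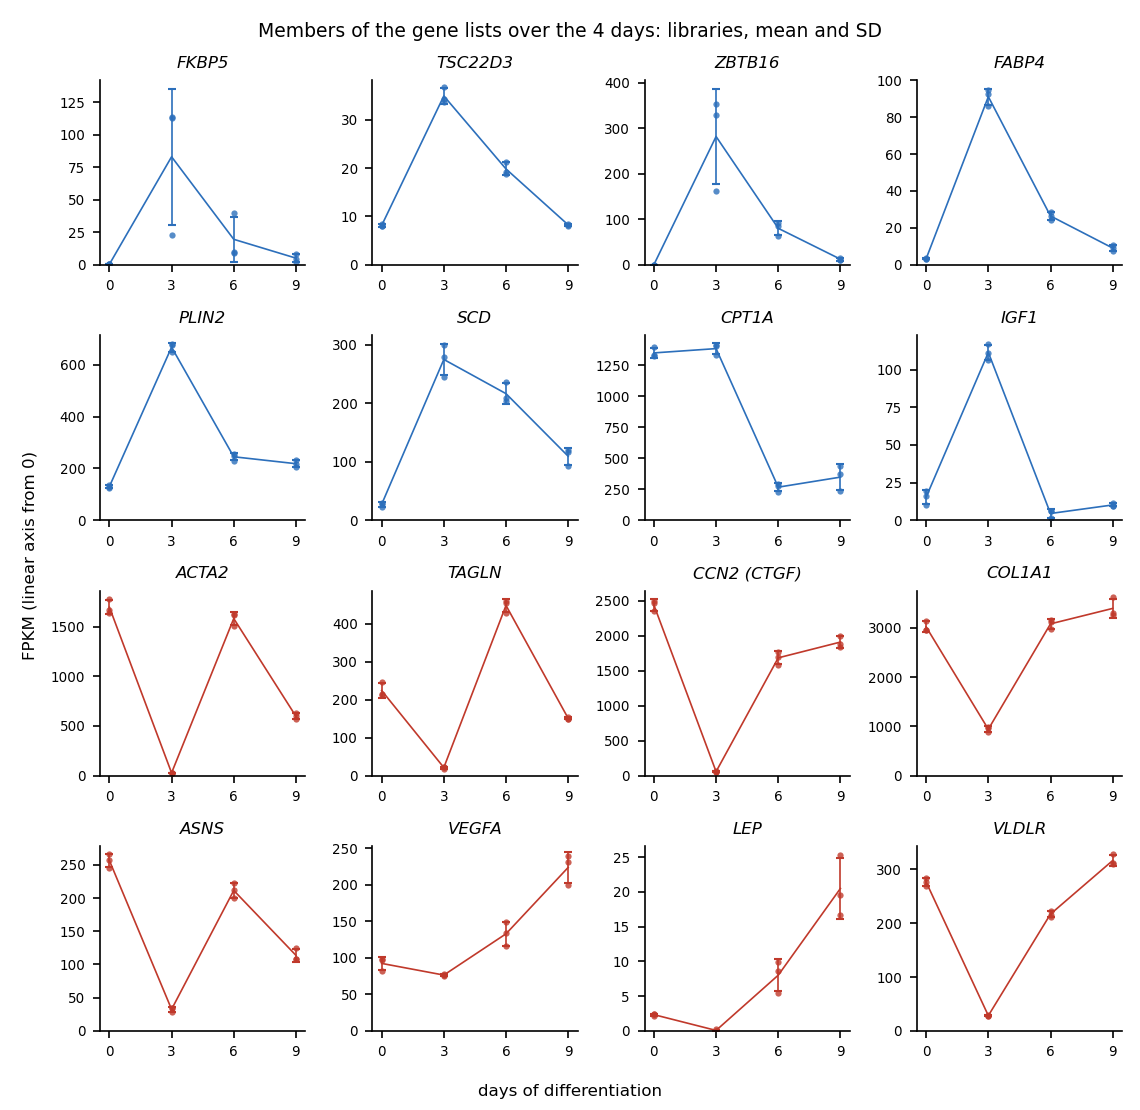
FPKM on linear axes from 0 for 16 members of the gene lists over the 4 days, where points are libraries, lines join the day means and bars are SD (n = 3). Genes in blue were called lower at 9 d than at 3 d, such as TSC22D3 (34.9 to 8.25 FPKM in the mean), and genes in red were called higher, such as ACTA2 (26.8 to 598).

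Of 9 tested fibrillar collagens, which give connective tissue its strength, 3 rose, 1 fell and 5 were not called, with a median of 0.66, and 8 of the 9 lay above the median of all genes. COL1A1 had 877, 987 and 958 FPKM at 3 d and 3615, 3259 and 3306 at 9 d, 3.61 times more (log2 1.85, SE 0.06, adjusted p = 4.72e-09), and COL1A2, the other chain of collagen I, had 4375, 5103 and 4834 and 15698, 13414 and 13834 (log2 1.58, adjusted p = 5.41e-08). Both chains of the main collagen of tendon and skin were higher in every 9 d library. COL11A1, which starts thin fibrils, rose 11.3 times, from 24.6 to 279 FPKM, and COL5A3 fell from 20.8 to 4. Of 11 small leucine-rich proteoglycans, which bind and space collagen fibrils, 2 rose and 1 fell, with a median of 0.59. FMOD, fibromodulin, had 239, 260 and 250.4 FPKM at 3 d and 1333, 1298 and 1459 at 9 d (log2 2.45, adjusted p = 1.55e-09), ASPN rose from 185 to 453, with 3 d replicate 1 at 315 FPKM, and PODN fell from 79.8 to 30.9.

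Elastic fibres and the enzymes that crosslink them had 6 of 16 genes higher and 0 lower in limma, with a median of 0.48, and 11 higher and 1 lower at an unadjusted p under 0.05. ELN, elastin, had 841, 1237 and 1239 FPKM at 3 d and 4664, 4294 and 4934 at 9 d, 4.19 times more (log2 2.09, adjusted p = 5.47e-07). LOX, the crosslinker of collagen and elastin, had 133, 127 and 132 FPKM at 3 d and 331, 351 and 377 at 9 d (log2 1.43), and its relative LOXL4 went from 0.54, 0.50 and 0.61 to 29.2, 27.6 and 30.1 (log2 5.49). All 3 were higher in each 9 d library than in any 3 d library. LOXL2, the most abundant of the list, was not called, at 6032 and 8623 FPKM.

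Matricellular proteins, which sit in the matrix and signal to cells more than they hold tissue together, had the highest median and the most rises of any list. Of 26 tested 17 rose and 3 fell, with a median of 1.55, and their FPKM summed to 5824, 6236 and 6109.9 at 3 d and 29889, 29301 and 28803 at 9 d. THBS1, thrombospondin 1, which can activate latent TGF-beta, was the most abundant, with 964, 1061 and 1124 FPKM at 3 d and 13048, 13239 and 12021 at 9 d, 12.2 times more (log2 3.61, SE 0.06, adjusted p = 7.68e-11). CCN2 (CTGF), a known target of TGF-beta and YAP, had 54.4, 55 and 59.9 FPKM at 3 d and 1842, 1999 and 1880 at 9 d, 33.8 times more (log2 5.08, adjusted p = 1.72e-11). For both genes the lowest 9 d library held more than 10 times the FPKM of the highest 3 d library. All 5 CCN genes of the list lay above the median of all genes: CCN3 (NOV) rose from 85.2 to 560.1 FPKM and CCN4 (WISP1) from 0.15 to 13, and CCN1 (CYR61), at 181 and 349, was just short of a call (log2 0.95). POSTN, periostin, had 2.13, 1.7 and 1.88 FPKM at 3 d and 30.7, 28.5 and 33.8 at 9 d (log2 3.96, adjusted p = 1.61e-09), SPP1, osteopontin, 0.173 and 5.39, and FN1, fibronectin, rose from 2723 to 6228. The fibulins FBLN2, FBLN5 and FBLN7 rose and FBLN1 fell. TNXB and CILP were the other members that fell: TNXB, tenascin X, from 10.8 ± 0.658 FPKM (SD, n = 3) to 2.21 ± 0.248, beside 154 at 0 d.

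Basement membrane, the sheet that surrounds fat and muscle cells, had members that moved in both directions. Of 22 tested genes 6 rose and 8 fell, with a median of 0.06, and their FPKM summed to 15308, 16318 and 15970.3 at 3 d and 12422, 11431 and 12185 at 9 d. Falls included NID2, which links laminin to collagen IV (3225, 3748 and 3608 FPKM at 3 d and 936, 859.8 and 905 at 9 d, log2 -1.97), the laminin chains LAMA1, LAMA2 and LAMB1, with LAMA2 from 1047 to 199 FPKM, and both chains of the common collagen IV. COL4A1 had 295, 315 and 307 FPKM at 3 d and 148, 135 and 143 at 9 d (log2 -1.11), which was not called with median ratio scaling (log2 -0.98). Rises included the laminin chains LAMA3, from 2.65 to 25.6 FPKM, LAMA5, from 47.8 to 124, and LAMB2, from 112 to 281, and the collagens COL4A5 and COL15A1. The list's 2 sides thus differ in laminin chains.

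Of 27 matrix proteases and inhibitors 8 rose and 9 fell, with a median of -0.60. ADAMTS4, a protease that cuts aggrecan and versican, had 759.8, 934 and 872 FPKM at 3 d and 58, 64.7 and 57.5 at 9 d, 14.2 times less (log2 -3.83, adjusted p = 4.41e-09). ADAMTS1, ADAMTS5 and ADAMTS15 fell from means of 67.5, 455 and 32 FPKM to 9.04, 115 and 1.88. The metalloprotease inhibitors TIMP3 and TIMP1 rose: TIMP3 had 2.87, 2.48 and 2.41 FPKM at 3 d and 59.2, 46.1 and 52.7 at 9 d (log2 4.29), and TIMP1 544, 659.9 and 641 and 2192, 1969 and 2100.3 (log2 1.77). Both kinds moved in both directions: ADAMTS6, ADAMTS10, ADAMTS12 and ADAMTS14 rose, the minor inhibitor TIMP4 fell, and TIMP2, the most abundant of the list, was not called. PLAU, urokinase, rose from 6.07 to 40.1 FPKM, and MMP2 and MMP14 were not called (log2 -0.51 and -0.60).

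Contractile genes of the smooth muscle type, which mark myofibroblasts and stress fibres, numbered 15 tested. Of these 9 rose, 1 fell and 5 were not called, with a median of 1.45. ACTA2, smooth muscle actin, had 24.6, 28.9 and 26.9 FPKM at 3 d and 596, 568 and 629 at 9 d, 22.3 times more (log2 4.48, SE 0.07, adjusted p = 6.93e-11). TAGLN, an actin-binding protein of the same cells, had 18.1, 23.3 and 21.8 FPKM at 3 d and 149, 149 and 154 at 9 d (log2 2.84), and CNN1, calponin, had 0.84, 1.28 and 0.97 and 12.7, 14.9 and 11.7 (log2 3.56). For all 3 the days were far apart, and the means at 0 d were 1697, 224 and 11.8 FPKM and at 6 d 1583, 448 and 47.5. ACTG2 rose from 17.6 to 219 FPKM, MYL9 from 1.47 to 10.8 and CSRP1, the most abundant of the list, from 207 to 468. The sum over the 15 genes was 693, 751 and 746 FPKM at 3 d and 2224, 2136 and 2129 at 9 d. MYH11, smooth muscle myosin, was the member that fell, with 60.6, 59.7 and 51.2 FPKM at 3 d and 28.3, 3.82 and 29.7 at 9 d (log2 -1.94, adjusted p = 0.0287). Without 9 d replicate 2, the low library, its fold shrank to log2 -0.97, and the call was also lost, with little change of the fold, in the fit of the 6 libraries (log2 -1.94) and without each 3 d library (log2 -2.01 to -1.89).

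Signals of the TGF-beta and BMP families had 9 of 23 tested genes higher and 6 lower, with a median of 0.14. Several secreted inhibitors rose, GREM1 and FST among them, with FSTL3 from 10.4 to 64.2 FPKM and CHRD from 0.687 to 2.99. CHRDL1, a BMP inhibitor and the most abundant of the list, was not called (1993 and 1765 FPKM), and BMPER, outside the list, fell as given above. BMP4, a ligand that commits precursors to fat, had 2.9, 2.28 and 2.5 FPKM at 3 d and 5.88, 12.2 and 9.3 at 9 d (log2 1.74, adjusted p = 8.97e-05). ID1, a direct BMP target, had 24, 27.3 and 26 FPKM at 3 d and 3.63, 3.56 and 3.43 at 9 d, 7.28 times less (log2 -2.83, adjusted p = 8.60e-09). Its relatives ID2 and ID3 fell too, from means of 436 and 43.3 FPKM to 180.2 and 9.95, as did SMAD6, an inhibitor that BMPs induce, in an entry shared with TRNAS-GGA. TGFBI, a matrix protein named for its induction by TGF-beta, rose from 93.5 to 431 FPKM, and TGFB2 fell from 21.6 to 3.33. The list thus moved in both directions. Among its inhibitors GREM1, FST, FSTL3 and CHRD rose, SMAD6 fell and others such as CHRDL1 were not called. Among its ligands BMP4, INHBA, INHBB and GDF15 rose, TGFB2 fell and others were not called. The BMP targets ID1, ID2 and ID3 fell, and ID4 was not called.

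Of 16 tested Wnt ligands, inhibitors and readouts 5 rose and 2 fell, with a median of 0.66. DKK3 had 7.63, 12.1 and 18.3 FPKM at 3 d and 121, 118 and 117 at 9 d (log2 3.31, adjusted p = 1.24e-04). The secreted inhibitor SFRP2 had 461, 471 and 491 FPKM at 3 d and 89, 87.7 and 102 at 9 d (log2 -2.35, adjusted p = 4.49e-09) and DKK1 fell with it. DKK2, WNT2, WNT5B and RSPO2 rose but stayed under 1 FPKM on both days. The count of rises was 1 with log2(FPKM + 1) and with a mean of at least 1 FPKM. SFRP4, the most abundant of the list, was not called, with 7003 and 3772 FPKM (log2 -0.89).

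Chemokines, cytokines and prostaglandin enzymes had 9 of 27 members higher and 9 lower, with a median of -0.41. CSF1, the macrophage growth factor and the most abundant of the list, was not called (1126, 1282 and 1183 FPKM at 3 d and 636, 625 and 617 at 9 d, log2 -0.93). PTX3, a secreted pattern receptor, had 1254, 1269.8 and 1240.3 FPKM at 3 d and 126, 105 and 98.1 at 9 d, 11.4 times less (log2 -3.52, adjusted p = 2.46e-09), and stood at 1301 FPKM at 6 d. The cyclooxygenases moved in opposite directions. PTGS1 had 16.3, 17.2 and 16.7 FPKM at 3 d and 0.62, 0.67 and 0.57 at 9 d (log2 -4.55, adjusted p = 3.22e-10), while PTGS2, the inducible enzyme, had 1.21, 0.85 and 1.32 and 15.3, 18.8 and 14.5 (log2 3.74, adjusted p = 6.51e-08). The entry of VCAM1, an adhesion receptor for white blood cells, and LOC534578 had 0.40, 0.50 and 0.72 FPKM at 3 d and 16.8, 18.3 and 19.5 at 9 d (log2 4.86), and LIF rose from 1.78 to 11.2. The neutrophil chemokines CXCL3, CXCL5 and CXCL8 fell, with CXCL5 from 149 to 53.8 FPKM, while CXCL2 was not called. IL6 rose from 0.020, 0.050 and 0.040 FPKM to 0.31, 0.29 and 0.33, a level so low that log2(FPKM + 1) gave log2 0.34 and no call. With log2(FPKM + 1) 5 members rose, and with a mean of at least 1 FPKM 4. The chemokine CCL2 was not called, at 9.9, 10.5 and 14.8 and 8.28, 8.55 and 9.26 FPKM.

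Of 14 tested entries of complement 4 fell and 0 rose in limma, with 5 lower and 4 higher at an unadjusted p under 0.05 and a median of 0.10. With median ratio scaling, and without 3 d replicate 2, 3 d replicate 3 or 9 d replicate 3, 1 member was called higher. C7, a part of the membrane attack complex, had 156, 139 and 152 FPKM at 3 d and 8.93, 8.85 and 13.9 at 9 d, 14.1 times less (log2 -3.84, adjusted p = 3.17e-05). The entry of CFB and C2, enzymes that activate C3, had 136, 144 and 127 and 36.5, 30.6 and 37.9 FPKM (log2 -1.96), and SERPING1, the inhibitor of C1, fell from 14.5 to 5.17. C3 itself stayed under 1 FPKM at 0.54, 0.50 and 0.47 and 0.72, 0.91 and 0.93 and was not called, and MASP1, the most abundant of the list, had 773 and 1523 FPKM (log2 0.98), just short of a call. The interferon-induced genes, which mark antiviral responses, had 3 of 14 tested members higher and 0 lower in limma. Their called share of 21.4% was near the 20.5% of all genes. The median was 0.10, with 6 higher and 3 lower at an unadjusted p under 0.05. The entry of IFIT3, LOC100139670 and LOC107131864 had 2.42, 1.64 and 1.95 FPKM at 3 d and 7.17, 9.09 and 11.4 at 9 d (log2 2.14), below its 0 d mean of 33.9. IFI6 and IFI44L rose near 1 FPKM, and 1 member rose with log2(FPKM + 1) or with a mean of at least 1 FPKM.

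Few genes of cell division were called. Of 31 tested genes of mitosis and DNA replication 3 fell and 0 rose in limma, with a median of -0.50, and 18 were lower and 3 higher at an unadjusted p under 0.05. The share of called members, 9.68%, lies under the 20.5% of all genes. MKI67, a marker of cycling cells, had 14.1, 15.1 and 13 FPKM at 3 d and 7.3, 7.17 and 7.05 at 9 d, which fell short of a call (log2 -0.96, adjusted p = 1.18e-05) unless 3 d replicate 3 was left out (log2 -1.02). TOP2A, which untangles replicated DNA, had 5.01, 4.82 and 5.01 and 2.09, 2.43 and 2.23 FPKM (log2 -1.10) and lost its call with median ratio scaling (log2 -0.98) and with log2(FPKM + 1) (log2 -0.87). CENPE fell from 32.6 to 13.2 FPKM. CDK1 had 42.2, 16 and 42 and 8.95, 11.4 and 15.8 FPKM, close to overlap, and its call (log2 -1.37) was lost without 3 d replicate 1 (log2 -1.13), without 3 d replicate 3 (log2 -1.14) and without 9 d replicate 1 (log2 -1.17). Of 11 genes listed as cell cycle inhibitors or by their names as growth arrest genes, 3 fell and 1 rose, with a median of -0.29. GAS1, a membrane protein of resting cells, fell from 469.5, 479 and 531 to 125, 147 and 160.2 FPKM (log2 -1.78). CDKN1B fell from 14.9 to 6.66 and BTG1 from 70.7 to 31.4. GAS6, which is not itself a cell cycle inhibitor, rose from 0.747 to 2.4, a call lost with log2(FPKM + 1) (log2 0.97).

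The amino acid stress response comprises genes that ATF4 switches on when amino acids run short or protein folding is disturbed. Of 20 tested 11 rose and 0 fell in limma, with a median of 1.196, and 15 were higher and 2 lower at an unadjusted p under 0.05. The FPKM of the list summed to 1873, 2115 and 2043 at 3 d and 2012, 1899 and 2247 at 9 d, so that the sum overlapped between days. ASNS, which makes asparagine, had 34.8, 28.7 and 34 FPKM at 3 d and 108, 108 and 126 at 9 d, 3.50 times more (log2 1.81, SE 0.09, adjusted p = 8.81e-08). The enzymes of serine synthesis rose together, PHGDH from 39.7 to 118 FPKM, PSAT1 from 43.8 ± 1.49 (SD, n = 3) to 170.1 ± 20.9 and PSPH from 8.15 to 49. TRIB3, a feedback inhibitor of ATF4, had 1.36, 1.6 and 1.87 FPKM at 3 d and 15.2, 13.5 and 21.1 at 9 d (log2 3.27), the cystine carrier SLC7A11 rose from 10.6 to 46.9, and ATF4 itself from 47.8 to 103. At 0 d and 6 d the means of ASNS were 256 and 211 FPKM, so that the 3 d level is the lowest of the 4 days.

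Of 15 genes known to be induced by low oxygen 7 rose and 0 fell in limma, with a median of 0.91 and 10 higher and 2 lower at an unadjusted p under 0.05. VEGFA, the growth factor of vessels, had 75.5, 76.4 and 77.3 FPKM at 3 d and 239, 200.2 and 232 at 9 d, 2.93 times more (log2 1.54, adjusted p = 1.13e-06). EGLN3, an oxygen-sensing hydroxylase, had 2.05, 2.31 and 2.58 and 26.2, 25.2 and 26.4 FPKM (log2 3.44), and CA9, a carbonic anhydrase at the cell surface, rose from 9.83 to 57.4. PLOD2, which prepares collagen for crosslinks, had 226, 319.6 and 238 FPKM at 3 d and 857, 788 and 825 at 9 d (log2 1.67). Glycolysis genes, though often counted among such genes, had no member called higher. Of 23 tested 3 fell and 0 rose in limma, a called share of 13% beside the 20.5% of all genes. At an unadjusted p under 0.05, 11 were lower and 5 higher, and the median was -0.16. PFKFB3, which speeds glycolysis, had 178, 174 and 190.4 FPKM at 3 d and 34.3, 32.1 and 29.8 at 9 d, 5.64 times less (log2 -2.49), and LDHA overlapped between days at 699.9, 659 and 691 and 721, 773 and 698 (log2 0.10, adjusted p = 0.182). HK2 and the insulin-dependent transporter SLC2A4 were not called, the latter at 1.32, 1.67 and 1.98 and 0.92, 1.27 and 1.31 FPKM.

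Of 22 tested genes of cholesterol synthesis 5 fell and 0 rose in limma, a called share of 22.7% near the 20.5% of all genes, with 13 lower and 1 higher at an unadjusted p under 0.05 and a median of -0.58. HSD17B7, an enzyme of the late steps, had 43.9, 42.3 and 42.9 FPKM at 3 d and 17.1, 18.7 and 15.9 at 9 d, 2.50 times less (log2 -1.32, adjusted p = 3.69e-07). Its 9 d libraries all lay far below those of 3 d, close to the 0 d mean of 15.5 FPKM. Of 10 genes of cholesterol efflux 4 fell and 0 rose in limma, with 7 lower and 2 higher at an unadjusted p under 0.05 and a median of -0.92. ABCA1, the exporter that loads apolipoprotein A1, had 3377, 2734 and 2699.8 FPKM at 3 d and 981, 919 and 975 at 9 d (log2 -1.61, adjusted p = 3.92e-06), and APOD fell from 12.8 to 1.61. With median ratio scaling 1 gene of synthesis was called higher. Of 11 tested genes of iron handling 1 rose and 1 fell, a called share of 18.2% near the 20.5% of all genes. The median was 0.32, and 2 rose with median ratio scaling. FTH1, the heavy chain of ferritin, had 101, 107 and 99.8 FPKM at 3 d and 203, 209 and 209 at 9 d, a call that leaving out 3 d replicate 1 (log2 0.999) or 3 d replicate 3 (log2 0.99) ended. Ceruloplasmin, CP, fell from 1.19 to 0.38 FPKM, without a call under log2(FPKM + 1) (log2 -0.65).

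The respiratory chain and the ribosome were close to level. Of 81 tested subunits of the respiratory chain 3 rose and 0 fell in limma (3.7%, with 17 higher and 15 lower at an unadjusted p under 0.05), with a median of 0.07. The count of rises was 1 with log2(FPKM + 1), without 3 d replicate 3 and without 9 d replicate 2, and with log2(FPKM + 0.01), without 9 d replicate 1 and without 9 d replicate 3, 1 fell. COX6A2, the heart and muscle form of a cytochrome oxidase subunit, had 0, 0.85 and 0 FPKM at 3 d and 2.09, 1.99 and 2.16 at 9 d, and the call of NDUFS4 (4.32, 2.44 and 2.05 and 5.84, 5.87 and 6.54 FPKM) was lost with log2(FPKM + 1) (log2 0.89) and in 5 of the fits that left out a library (log2 0.88 to 1.12), all but that without 3 d replicate 1. Of 81 tested cytosolic ribosomal proteins 1 fell and 0 rose in limma (1.23%, with 15 lower and 18 higher at an unadjusted p under 0.05), with a median of 0.07. The member that fell is RPL22L1, a variant of RPL22, with 314, 297 and 319 FPKM at 3 d and 95.2, 109.6 and 99.1 at 9 d (log2 -1.61).

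Precursor markers moved in both directions: of the 8 tested 3 rose and 2 fell, with a median of 0.62. PDGFRA, the receptor that marks fat and fibrous progenitors of muscle, had 925, 963 and 900.4 FPKM at 3 d and 201, 198 and 209.8 at 9 d, 4.58 times less (log2 -2.19, SE 0.05, adjusted p = 1.03e-09). PDGFRB, the receptor of mural cells and fibroblasts, rose from 215, 238 and 223 to 636, 585 and 572 FPKM (log2 1.40), and THY1 fell from 121 to 46.9. The balance of the 2 receptors was thus reversed, with PDGFRA the higher in FPKM at 3 d and PDGFRB at 9 d. The summed FPKM of the 9 markers was 11698, 12737 and 12279 at 3 d and 28838, 27542 and 28947 at 9 d, mostly VIM.

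Markers of other cells of muscle were present for the muscle lineage and low or at 0 for most others. Of 21 tested skeletal muscle entries 4 rose and 5 fell, with a median of -0.15, and the FPKM of the list summed to 5149, 3497 and 3869 at 3 d and 2192, 1812 and 1959 at 9 d. Most of it is the entry of TTN, titin, and LOC112442545, with 4529.9, 2777 and 3156 and 1415, 1085 and 1137 FPKM (log2 -1.50). Whether reads of overlapping or similar loci add to that entry, and so to the sum, was not tested. MYOD1, the factor of muscle precursors, had 107, 113 and 108 FPKM at 3 d and 56.6, 43.2 and 63.8 at 9 d, a fall of -1.02 on the log2 scale that lost its call with median ratio scaling (log2 -0.89), without 3 d replicate 2 (log2 -0.997) and without 9 d replicate 2 (log2 -0.86). In the list 3 members fell with median ratio scaling, and 3 without 9 d replicate 2. TNNT1, MYH7, CKM and the entry of MYH1 and MYH2 rose, MYH7 from 3.31 to 25.4 FPKM, and DES and ACTA1 were not called, at log2 0.58 and -0.15. The rise of TNNT1 (2.25, 0 and 1.68 FPKM at 3 d and 8.25, 8.26 and 8.08 at 9 d) had the same fold but no call in a fit of the 6 libraries alone (log2 3.47).

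Of 10 endothelial markers 4 were tested, with a sum of 3.77, 3.59 and 3.47 FPKM at 3 d and 3.5, 2.87 and 3.65 at 9 d and a median of -0.20. VWF was the most abundant, TIE1 and ESAM were listed at 0 in all 6 libraries, ERG rose and TEK fell, and neither call was kept with log2(FPKM + 1) (log2 0.40 and -0.82). Of 13 immune markers 4 were tested, with a sum of 5.34, 6.06 and 5.98 FPKM at 3 d and 4.55, 4.02 and 3.37 at 9 d, a median of -0.48, 1 member lower and 0 higher in limma, and the same 1 and 0 at an unadjusted p under 0.05. CD14 was the most abundant, and PTPRC, ITGAM, C1QA, C1QB, C1QC and TYROBP were listed at 0 in all 6 libraries. CSF1R fell from 0.84, 0.80 and 0.97 to 0.27, 0.37 and 0.23 FPKM, a call lost with log2(FPKM + 1) (log2 -0.54). The 4 red blood cell markers were all under the filter, with sums of 0.32, 0.080 and 0.030 FPKM at 3 d and 0.030, 0.090 and 0.030 at 9 d and HBB at 0. Of 5 Schwann cell markers S100B alone was tested, and it fell from 11.2, 11.7 and 10.2 to 2.87, 3 and 2.89 FPKM (log2 -1.88), with 0 higher in limma and 1 lower and 0 higher at an unadjusted p under 0.05. The listed markers of endothelial, immune and red blood cells were thus low or at 0 on both days. CD163, best known from macrophages but outside the immune list, had 204, 114 and 85.2 FPKM at 3 d and 3.97, 2.72 and 2.98 at 9 d. Of 9 markers of bone and cartilage 6 were tested and 3 rose, with 0 lower in limma, 3 higher and 0 lower at an unadjusted p under 0.05, a median of 0.84 and sums of 76.8, 63.4 and 22 FPKM at 3 d and 57.3, 54.9 and 54.8 at 9 d. ALPL, alkaline phosphatase, rose from 11.1 to 25.2 FPKM, SOX9 from 1.34 to 2.88 and ACAN, aggrecan, to 2.40. RUNX2, the bone factor and the most abundant, had 62.4, 48.4 and 10.3 FPKM at 3 d and 25.8, 21.7 and 23.8 at 9 d, and was called lower (log2 -1.21) when 3 d replicate 3, its lowest library, was left out. For all these lists of other cell types, muscle included, their part in the result was not tested.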

How the data were processed

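The authors' deposited table gives FPKM per gene. The study's methods describe rRNA removal, the labels poly(A) selection. Methods name mapping to ARS-UCD1.2; the submitters list HISAT2 2.0, StringTie 1.3.0, Bowtie 0.12.2 and build mm8, which is no cattle build. Of 33714 entries, 10294 are 0 throughout; 15402 with a mean of at least 0.1 FPKM were tested, 711 naming several genes. limma 3.58.1 (trend) was fitted to log2(FPKM + 0.1) of 12 libraries, contrast 9 d minus 3 d (R 4.3.3, Python 3.11.15, pandas 2.3.3, numpy 2.4.6, matplotlib 3.10.9). Named genes are the 10 largest rises and falls without overlap and with a mean of at least 1 FPKM, the 5 largest gains and losses of FPKM among called genes, the 10 most abundant entries and, per list, key members, the most abundant called and the largest rise and fall. Lists were chosen knowing earlier results of these data. A RefSeq table gave gene classes.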

Additional observations from a re-analysis of the deposited data

How the results depend on the processing

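With log2(FPKM + 1) in place of log2(FPKM + 0.1), 1013 genes were higher, 850 lower and the median log2 fold change was -0.0749; the added 1 shrinks differences of low genes by construction. The median was -0.0458 with no filter on low values (1609 higher, 1623 lower), -0.0999 with a mean of at least 1 FPKM (1200 and 1076) and -0.0087 with median ratio scaling (1823 and 1253). Log2(FPKM + 0.01) gave 1780 and 1738, a fit of the 6 libraries 1563 and 1550. Leaving out 1 library gave 1527 to 1576 higher and 1430 to 1566 lower. With the replicate number as a replicate block, 1574 were higher and 1564 lower. Of 165 named genes 138 were called, 112 of them under all 13 settings. Causes of the other shifts were not tested.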

Other observations

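The share of genes called, 20.5% of all tested, is given here by class, without a test between classes. Of 12226 tested entries matched to a protein-coding gene, 20.3% were called, 1388 higher and 1089 lower at 9 d than at 3 d, with 3332 higher and 3930 lower at an unadjusted p under 0.05 and a median log2 fold change of -0.07, or 0.04 with median ratio scaling. Long non-coding RNAs had 57 of 665 higher and 144 lower (30.2% called), with 87 higher and 265 lower at an unadjusted p under 0.05 and a median of -0.44, or -0.35 with that scaling. Small nucleolar RNAs, which guide the modification of ribosomal RNA, had 15 of 120 lower and 0 higher in limma (12.5% called, and 11 lower and 1 higher with that scaling), with 52 lower and 1 higher at an unadjusted p under 0.05 and a median of -0.46. Small nuclear RNAs of splicing had 8 of 62 lower and 0 higher in limma (12.9% called), with 14 lower and 0 higher at an unadjusted p under 0.05. Of 102 transfer RNA entries 14 fell and 4 rose (17.6% called), and of 101 microRNA entries 14 fell and 7 rose (20.8% called), with medians of -0.30 and -0.28. The FPKM of such short RNAs can also come from longer transcripts that overlap them, which was not tested.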
